A study of Mus musculus with 151 samples.

Results

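The 10 genes described here belong to the contact between oocyte and follicle cells and were followed through the mouse female germ line and ovary after natural conception or in vitro fertilization (IVF). They were chosen by name: the connexins Gja1, Gja4 and Gjc1, the cGMP and cAMP genes Nppc, Npr2, Pde3a and Gpr3, and Myo10, Fscn1 and Daam1, which shape actin-rich cell projections. All 10 had a row in each of the 7 count tables, out of 35976 gene names. Connexins build gap junctions, channels through which small molecules pass between neighbouring cells. In the follicle, granulosa cells secrete C-type natriuretic peptide, the product of Nppc, whose receptor NPR2 makes cGMP in granulosa and cumulus cells. That cGMP enters the oocyte through gap junctions and inhibits the phosphodiesterase PDE3A, so that cAMP, raised by the oocyte receptor GPR3, stays high and holds meiosis until ovulation. The junctions form where thin cumulus projections reach through the zona pellucida to the oocyte surface.

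Natural females came from CF-1 dams mated in a natural cycle with B6/SJL males and developed in vivo. IVF females came from oocytes of superovulated CF-1 dams fertilized with B6/SJL sperm, with embryos cultured to the blastocyst and transferred to pseudopregnant recipients. The animals studied as adults were delivered by cesarean section and raised by CF-1 foster dams, so that both adult groups share these steps. Their timing was not shared, since the paper gives a later embryonic day of delivery for IVF than for Natural pregnancies. Its methods word this for the collection of fetuses as well, although the fetal ovaries of both groups are labelled E18.5. RNA was sequenced from primordial germ cells (PGC) at E13.5 in pools of sorted cells (4 Natural, 5 IVF), whole ovary at E18.5 (4 and 6), 12 weeks (4 and 5) and 39 weeks (5 and 5), single ovulated oocytes at 12 weeks (36 and 40) and 39 weeks (9 and 10), and cumulus cells at 12 weeks (5 and 5). Oocytes and cumulus cells came from gonadotropin-primed females after ovulation, so that the cumulus cells had already been exposed to the ovulatory signal, and 39-week cumulus cells were not analysed here.

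Levels below are CPM, a gene's count scaled to a common library total. Total counts ran from 2839022 to 43363799 in ovary libraries, 4364495 to 8675189 in PGC pools, 839781 to 31126357 in single oocytes and 2532824 to 6345249 in cumulus cells. Some libraries stood apart. In 10 of 76 oocytes at 12 weeks (4 Natural, 6 IVF) the CPM of 8 oocyte marker genes summed to 1734 to 7911, against 16877 to 35375 in the other 66, and 2 of the 9 Natural oocytes at 39 weeks were as low (2899 and 6499). In 2 of the 6 IVF ovaries at E18.5 the same sum was 8.10 and 13.6, against 95.2 to 118 in the other 4. In 1 IVF ovary at 39 weeks (replicate 1), oviduct and epithelium markers summed to 8310, against 213 or less in every other 39-week ovary. In 1 IVF ovary at 12 weeks (replicate 4) the total was 2839022 counts, against 9731457 or more in every other 12-week ovary. In cumulus cells, 1 Natural library (replicate 5) carries a name in the series of the IVF oocyte donors, and it was kept as labelled. Likewise, 1 Natural ovary at 39 weeks also carries a slightly later age in its labels. In bulk tissue, fewer cells of a type and less RNA per cell cannot be told apart. The labels do not say for every sample that replicates came from separate animals, so p-values measure the spread between these samples.

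Promoter sequence is shown for the connexins with the highest levels on either side of the junction, Gja1 for the cumulus cells and Gja4 for the oocyte, and for Fscn1, a cumulus-side projection gene. Each stretch runs 5′ to 3′ on the gene's own strand from 170 bases before to 30 bases after the transcription start in RefSeq (GRCm38.p6). Capitals mark an E-box (CANNTG, the motif bound by basic helix-loop-helix factors) in the connexin promoters and a full cAMP response element (TGACGTCA) in Fscn1.
Gja1, chr10:56377130-56377329, plus strand: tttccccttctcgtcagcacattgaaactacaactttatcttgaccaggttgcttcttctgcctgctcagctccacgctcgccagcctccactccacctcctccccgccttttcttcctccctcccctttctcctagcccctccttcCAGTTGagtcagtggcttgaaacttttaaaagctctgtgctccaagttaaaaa
Gja4, chr4:127314010-127314209, minus strand: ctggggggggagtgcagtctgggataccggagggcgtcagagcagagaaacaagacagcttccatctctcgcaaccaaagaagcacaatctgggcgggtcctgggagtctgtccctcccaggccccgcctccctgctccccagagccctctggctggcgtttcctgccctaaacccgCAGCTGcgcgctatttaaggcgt
Fscn1, chr5:142960185-142960384, plus strand: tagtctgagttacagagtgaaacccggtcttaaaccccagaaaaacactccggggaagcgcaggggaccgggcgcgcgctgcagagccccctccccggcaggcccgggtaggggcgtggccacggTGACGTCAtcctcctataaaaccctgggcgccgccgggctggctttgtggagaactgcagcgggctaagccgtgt
The motifs were searched on both strands in windows from 250 bases before to 50 after the start. An E-box stood in 72.3% of all 32851 promoter windows, so its presence does not set these genes apart, and the cAMP response element stood in 1.79%. In Gja4 a GC box (GGGCGG, in 35.7% of windows) began 79 bases before the start, and in Fscn1 the TATA box (TATAAA, in 13.6%) began 31 bases before it, downstream of the cAMP response element. Of the 10 genes 8 had a window, and 2 (Gjc1 and Pde3a) are named only. Neither the TAATTG element (8% of windows) nor the nuclear receptor site AAGGTCA (4.72%) was found in any of the windows of these 8. A match of letters is no evidence of binding.

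In GRCm38 (GENCODE annotation), Gja1 lies at chr10:56377330-56390415 (plus strand), Gja4 at chr4:127311421-127314039 (minus), Gjc1 at chr11:102799579-102819700 (minus), Npr2 at chr4:43631935-43651244 (plus) and Nppc at chr1:86666291-86670571 (minus). Pde3a lies at chr6:141249269-141507448 (plus), Gpr3 at chr4:133209340-133212536 (minus), Myo10 at chr15:25622525-25813673 (plus), Fscn1 at chr5:142960343-142973185 (plus) and Daam1 at chr12:71831078-71992333 (plus). The combined exon length of each gene in this annotation ran from 1042 bases in Nppc to 12302 in Pde3a. The annotation behind the deposited counts may differ from it.

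At 12 weeks the genes divided between the 2 cell types of the cumulus-oocyte complex. Gja4, Pde3a, Gpr3 and Daam1 were oocyte transcripts, and Gja1, Npr2 and Fscn1 were cumulus transcripts. For this comparison the oocytes were summed per donor set, read from the library names (5 Natural and 5 IVF sets of 5 to 8 oocytes), and set against the 10 cumulus libraries. The labels do not state that these name fields stand for donors, and by the first field alone there would be 2 sets in each group, so that the n of 5 per group is an assumption. All 9 genes tested passed, 6 higher and 3 lower in oocytes, in edgeR's quasi-likelihood test with Benjamini-Hochberg adjustment. The background was 89.5% of 14719 genes called, so the number of calls says nothing particular about these genes, and their sizes and directions are what the comparison adds. In 7 of the 9 no oocyte set overlapped any cumulus library, against 62% of all genes tested.

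Gja1, the main connexin of granulosa and cumulus cells, was the most abundant of the 10 in cumulus cells. Its level was 3539.9, 3295, 4110.1, 3005 and 5030.1 CPM in the Natural cumulus libraries and 4502, 2915, 4342, 2211 and 2164 in the IVF ones. The oocyte sets held 18.6, 7.74, 23.3, 17.8 and 65.2 CPM (Natural) and 9.50, 52.0, 35.7, 47.2 and 8.08 CPM (IVF). Every cumulus library was thus far above every oocyte set, with a mean of 3512 ± 972 CPM (SD, n = 10) against 28.5 ± 20.4 (n = 10). The log2 fold change of oocytes over cumulus was -6.36 (SE 0.42, edgeR quasi-likelihood test, adjusted p = 1.2e-12).

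Gja4, the connexin of the oocyte's side of the channel, had the mirrored pattern. The Natural oocyte sets held 100.0, 72.5, 112, 86.9 and 82.4 CPM and the IVF sets 81.5, 129, 76.4, 100.4 and 139 CPM. Cumulus cells held 12 Gja4 counts in all 5 Natural libraries together and 2 counts in the 5 IVF libraries, a mean of 0.287 CPM. The log2 fold change was 8.96 (SE 0.47, edgeR quasi-likelihood test, adjusted p = 1.26e-14). Gjc1, a connexin of heart conduction tissue and early embryos, was low in both cell types, at 2.14 CPM in oocytes and 0.561 in cumulus cells, with overlapping values although the test passed (log2 fold change 2.41, SE 0.59, edgeR quasi-likelihood test, adjusted p = 0.00055).

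Of the 4 cyclic nucleotide genes, Npr2 was higher in cumulus cells, Pde3a and Gpr3 were higher in oocytes, and Nppc was too low in both to test. Npr2, the receptor guanylyl cyclase, was found at 7.08 to 18.6 CPM in the 10 cumulus libraries and at 0.715 CPM or less in the oocyte sets, which do not overlap (log2 fold change -5.11, SE 0.73, edgeR quasi-likelihood test, adjusted p = 6.35e-07). Nppc, its ligand, was nearly absent from both and was not tested: 1 count in 10 cumulus libraries, and at most 0.186 CPM in an oocyte set. The 5 Natural cumulus libraries were at 0, where 3 counts over the group would correspond to 0.12 CPM, so that a lower level was not detectable at this depth.

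Pde3a, the oocyte phosphodiesterase that breaks down cAMP, was the most abundant of the 10 in oocytes by CPM. The Natural sets held 225, 195, 208, 243 and 241 CPM and the IVF sets 219, 245, 164, 208 and 249 CPM, a mean of 220 ± 27.1 (SD, n = 10). In cumulus cells there were 6 counts in the 5 Natural libraries and 0 in the 5 IVF libraries, where 3 counts over the group would be 0.133 CPM. The log2 fold change was 11.32 (SE 0.39, edgeR quasi-likelihood test, adjusted p = 1.4e-17). Gpr3, the constitutively active receptor that drives cAMP production in the oocyte, had 48.7 ± 12.9 CPM in oocyte sets (n = 10) against 2 counts in Natural and 8 counts in IVF cumulus libraries (log2 fold change 8.44, SE 0.41, edgeR quasi-likelihood test, adjusted p = 2.9e-15). Where cumulus cells are near 0 these fitted folds depend on the prior count of the fit and set no bound.

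The 3 projection genes did not share a side. Fscn1, which bundles the actin filaments of cell projections, was at 34.9 to 74.2 CPM in the cumulus libraries and at 0.428 to 2.89 in the oocyte sets (log2 fold change -4.69, SE 0.33, edgeR quasi-likelihood test, adjusted p = 3.92e-12). Daam1, a formin that nucleates actin, was an oocyte transcript, at 86.8 to 135 CPM in oocyte sets and 2.36 to 11.4 in cumulus cells (log2 fold change 4.65, SE 0.19, edgeR quasi-likelihood test, adjusted p = 1.51e-16). Myo10, the motor that carries cargo to the tips of such projections, was found in both, at 5.20 to 17.4 CPM in cumulus cells and 3.77 to 40.2 in oocyte sets. These ranges overlap. The log2 fold change of Myo10 was 1.40 (SE 0.33, edgeR quasi-likelihood test, adjusted p = 0.000343) and 0.78 when libraries were scaled by their totals alone.

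**Figure D1:**
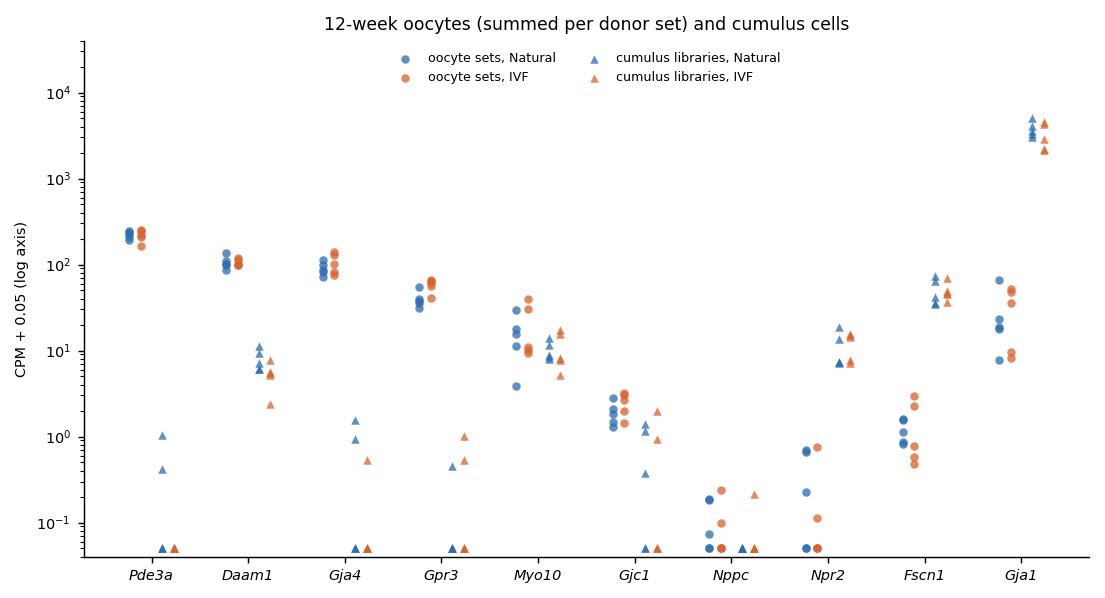
Level of each gene (CPM + 0.05, log axis) in 12-week oocytes summed per donor set (circles) and in cumulus libraries (triangles), Natural in blue and IVF in orange, and each point is 1 set or library. Pde3a, Daam1, Gja4 and Gpr3 are higher in every oocyte set than in any cumulus library, Gja1, Fscn1 and Npr2 are lower, and Myo10 overlaps.

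Levels can be compared between genes only per length of exon. On that scale (mean CPM per kb of exon in the GENCODE annotation), Gja4 was the most abundant of the 10 in oocyte sets, at 53.8 in Natural and 62.4 in IVF sets. Pde3a, whose exons are the longest, had 18.1 and 17.6 CPM per kb, close to Daam1 with 17.5 in both groups, and Gpr3 had 15.2 and 21.8. In cumulus cells Gja1 stood at 1126 and 957 CPM per kb, Fscn1 at 18.8 and 18.4, and Npr2 at 2.89 and 3.20.

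Other genes of the 3 pathways, from lists chosen with earlier results of these data known, were called about as often as all genes, of which 47.7% were higher and 41.8% lower in oocytes. Their counts are a description and set the lists apart from nothing. Of 10 gap junction genes tested, 8 were higher in oocytes and 1, Gja1, was lower. The largest rises besides Gja4 were in the connexins Gja3 (3.75 CPM in oocytes) and Gjb1 (1.82 CPM), both without a count in cumulus cells. Of 41 cGMP and cAMP genes tested, 21 were higher and 16 lower. Prkg1, a cGMP-dependent kinase, had 14.5 CPM in oocytes and none in cumulus cells, and Pde3b, a close relative of Pde3a, rose from 0.255 to 95.5 CPM (log2 fold change 9.04, SE 0.33). The largest falls besides Npr2 were in Npr1, the receptor for atrial natriuretic peptide (53.8 CPM in cumulus, 0.830 in oocytes; log2 fold change -5.47, SE 0.67), and in Adcy3, an adenylyl cyclase (20.8 against 0.691 CPM).

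Of 25 projection and adhesion genes tested, 14 were higher in oocytes and 9 lower. Cdh1, the cell adhesion molecule E-cadherin, was at 0.853 CPM in cumulus cells and 430.4 in oocytes (log2 fold change 9.66, SE 0.26), and the formin Fmn2 at 0.326 and 46.8 CPM. The related linkers of actin to the membrane split: Rdx was higher in oocytes (log2 fold change 4.97, SE 0.20), and Ezr (281 CPM in cumulus, 9.83 in oocytes) and Msn (115 and 4.71 CPM) were lower. The median log2 fold change over all genes tested was 0.32.

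Among single oocytes at 12 weeks, the spread differed between genes, and part of it lay between donor sets. Over the 66 oocytes of high marker sum the coefficient of variation was 11.0% for Pde3a, 15.4% for Daam1, 26.9% for Gja4, 31.2% for Gpr3 and 67.5% for Myo10. Within donor sets it was 9.87% for Pde3a, 12.7% for Daam1, 20.9% for Gja4, 22.8% for Gpr3 and 42.4% for Myo10, whose set means ran from 3.79 to 31.1 CPM in these 66. Gja1 varied far more, with a coefficient of 195% (191% within sets), a count in 58 of 76 oocytes, a median of 5.06 CPM and a range of 0 to 243. The Gja1 level of an oocyte went with the summed CPM of 4 genes of the expanded cumulus (Spearman's rho = 0.706 and Pearson's r = 0.824 on the log scale, n = 76 oocytes, which share donors, library and depth), and that of Fscn1 did so less closely (rho = 0.455). The part of adhering cumulus cells in oocyte Gja1 was not tested.

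The 10 oocytes of low marker sum differed from the other 66 in the oocyte-side genes, each by its own measure. Pde3a was at 2.06 to 92.8 CPM in the 10 and 165 to 287 in the 66, with no overlap. Gja4 was at 0 to 33.4 CPM in the 10 and 51.9 to 188 in the 66, again with no overlap. Daam1 was at 82.1 to 220 against 68.3 to 150, and Gpr3 at 9.53 to 113 against 23.4 to 84.4, so that these 2 overlapped. The Gpr3 range pools unlike groups. The 4 Natural oocytes of low sum held 9.53 to 40.2 CPM and the 6 IVF ones 72.5 to 113. Oocytes of high sum held 23.4 to 75.3 CPM (Natural) and 26.6 to 84.4 (IVF). The oocyte marker genes did not include any of the 10 genes, and the 2 sets were defined from the data. The share of all genes without overlap in this split was not computed. The split is thus a description that does not set Pde3a and Gja4 apart from other genes, and its oocytes share donor sets.

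**Figure D2:**
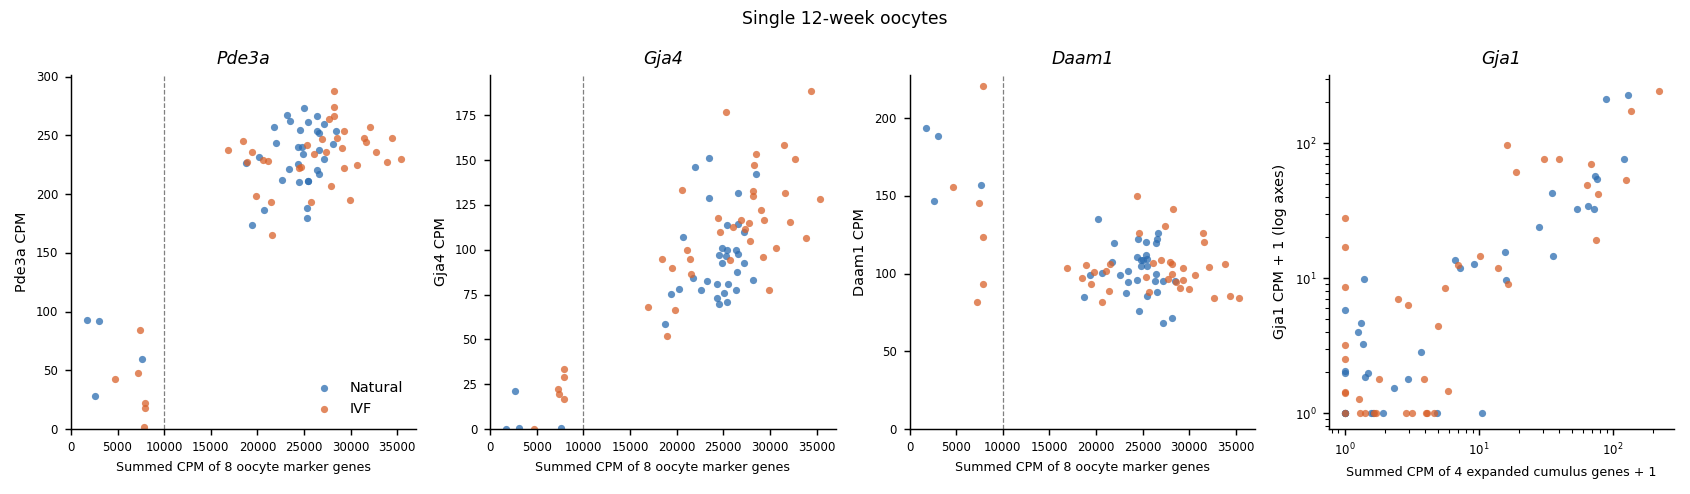
Each point is 1 oocyte at 12 weeks (Natural blue, IVF orange): Pde3a, Gja4 and Daam1 (CPM) against the summed CPM of 8 oocyte marker genes, with a dashed line at 10000, and Gja1 against the summed CPM of 4 expanded cumulus genes (both + 1, log axes). Left of the line Pde3a and Gja4 are lower than in all oocytes to its right, Daam1 is not, and Gja1 rises with the cumulus genes.

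No gene of the 10 passed between IVF and Natural oocytes at 12 weeks. In numbers, 0 of the 8 tested passed edgeR's quasi-likelihood test over donor sets, and 0 had an unadjusted p under 0.05, where 0.0277% of 14444 genes were called (4 genes, with 963 at an unadjusted p under 0.05). Gpr3 had the largest log2 fold change of the 8. Its Natural sets held 55.4, 39.9, 35.9, 37.2 and 31.3 CPM and its IVF sets 55.7, 41.2, 64.1, 61.2 and 65.4 CPM. In all, 4 of the 5 IVF sets lay above all Natural sets (mean 57.5 ± 9.87 against 40.0 ± 9.16, SD, n = 5 each), with a log2 fold change of 0.39 (SE 0.20, edgeR quasi-likelihood test, adjusted p = 0.776). Without the oocytes of low marker sum it was 0.35 (SE 0.18) and did not pass. Gja4, with the values given above, had a log2 fold change of 0.10 (SE 0.22, adjusted p = 0.964 in the same edgeR test), and Pde3a one of -0.15 (SE 0.15), so that a moderate difference in either direction was not detectable.

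In cumulus cells 0 of 5 genes tested passed, where 0.00973% of 10280 genes were called (1 gene, with 625 at an unadjusted p under 0.05). Gja1 had a mean of 3796 ± 801 CPM in Natural and 3227 ± 1132 in IVF libraries (SD, n = 5 each), with overlapping values (log2 fold change -0.34, SE 0.23, edgeR quasi-likelihood test, adjusted p = 0.875). The cumulus libraries came in 2 sets by their names. Within the first set (2 against 2) Gja1 fell by 0.72 on the log2 scale (SE 0.10, edgeR quasi-likelihood test, adjusted p = 1.39e-05). That fit called 6% of 10649 genes. Within the second set the log2 fold change was -0.09 (SE 0.33), with 2 of 10125 genes called. The pooled value covers both sets, and whether the Gja1 change differs between them was not tested. With the Natural library of doubtful name counted as IVF, the log2 fold change was -0.13. Daam1 was at 6.02, 11.4, 6.03, 9.31 and 7.07 CPM in Natural and 5.53, 5.37, 2.36, 7.77 and 5.20 in IVF libraries. It was the 1 gene of the 5 with an unadjusted p under 0.05 (log2 fold change -0.67, SE 0.32, edgeR quasi-likelihood test, adjusted p = 0.821), and its groups overlap. Npr2, Myo10 and Fscn1 overlapped too.

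In the E18.5 ovary, around the time when oocytes become enclosed in primordial follicles, Gja4 was lower after IVF. Its level was 49.6, 52.1, 35.4 and 83.3 CPM in the Natural ovaries and 29.4, 18.4, 25.7, 16.5, 28.7 and 29.4 in the IVF ovaries. Every IVF ovary lay below every Natural ovary (mean 24.7 ± 5.80, n = 6, against 55.1 ± 20.2, n = 4, SD). Gja4 fell by 1.20 on the log2 scale (SE 0.22, edgeR quasi-likelihood test, adjusted p = 0.0138), the 1 call among the 10 genes, where 5.43% of 16415 genes were called and 8.27% had groups that did not overlap. A share of 1 in 10 is near that background.

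Oocyte marker RNA moved with Gja4. The summed CPM of the 8 oocyte markers was 190.1, 210.4, 123 and 410.2 in Natural ovaries and 118, 8.10, 109, 13.6, 95.2 and 101 in IVF ovaries, without overlap. Of the 8 markers 7 were tested and 3 fell (median log2 fold change -2.14), and 1 was at 0 in every ovary. The highest Gja4 was in the Natural ovary with the highest sum, and the lowest values were in the 2 IVF ovaries with sums of 8.10 and 13.6. Without those 2, the log2 fold change of Gja4 was -1.03 (SE 0.21, edgeR quasi-likelihood test, adjusted p = 0.0675) and its 4 remaining IVF ovaries still lay below all Natural ones. As a percent of the marker sum, Gja4 was 20.3 to 28.8 (median 25.4) in Natural and 23.6 to 227 (median 29.6) in IVF ovaries. The high end of the IVF range comes from the 2 ovaries with sums of 8.10 and 13.6, where the divisor is small. Gja4 is also expressed by arterial endothelium. Endothelial markers summed to 346 to 495 CPM in Natural and 335 to 393 in IVF ovaries, and erythroid markers to 583 to 1595 and 1635 to 4592. The paper stained fixed whole ovaries for GCNA1 at E18.5 and reports no difference in germ cell number between the groups. Those counts were not made on the RNA samples. The part of cell composition in the Gja4 difference was not tested.

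The other 9 genes did not pass at E18.5. Gpr3, low in whole ovary, was at 2.11, 2.06, 0.920 and 6.68 CPM in Natural and 1.03, 0.198, 0.333, 0.995, 1.29 and 2.84 CPM in IVF ovaries, which overlap (log2 fold change -1.46, SE 0.64, edgeR quasi-likelihood test, adjusted p = 0.181). Npr2 was at 88.6, 141, 103 and 144 CPM in Natural and 147, 149, 171, 168, 130.4 and 167 CPM in IVF ovaries, so that 5 of 6 IVF ovaries exceeded every Natural one (log2 fold change 0.35, SE 0.14, edgeR quasi-likelihood test, adjusted p = 0.138). Gja1 (172 to 253 against 130.2 to 209 CPM), Gjc1 (58.0 to 68.6 against 61.6 to 70.8), Pde3a (49.96 to 100.3 against 59.0 to 75.8), Nppc (0.187 to 1.55 against 0.167 to 1.43), Myo10 (98.7 to 147 against 107 to 145), Daam1 (44.7 to 96.7 against 65.7 to 89.5) and Fscn1 (282 to 395 against 227 to 321) overlapped. Among the pathway lists, 2 of 13 gap junction genes tested fell (Gja4 and Gja5, another arterial connexin, from 15.0 ± 3.65 to 8.16 ± 1.503 CPM, log2 fold change -0.92, SE 0.21), 0 of 45 cGMP and cAMP genes passed, and 1 of 26 projection genes rose (the formin Fmnl2, 93.6 ± 19.0 to 138 ± 11.7 CPM, log2 fold change 0.52, SE 0.13). Of all 16415 genes tested 5.43% were called, and whether any list differs from that share was not tested. The median log2 fold change over all genes was 0.00.

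**Figure D3:**
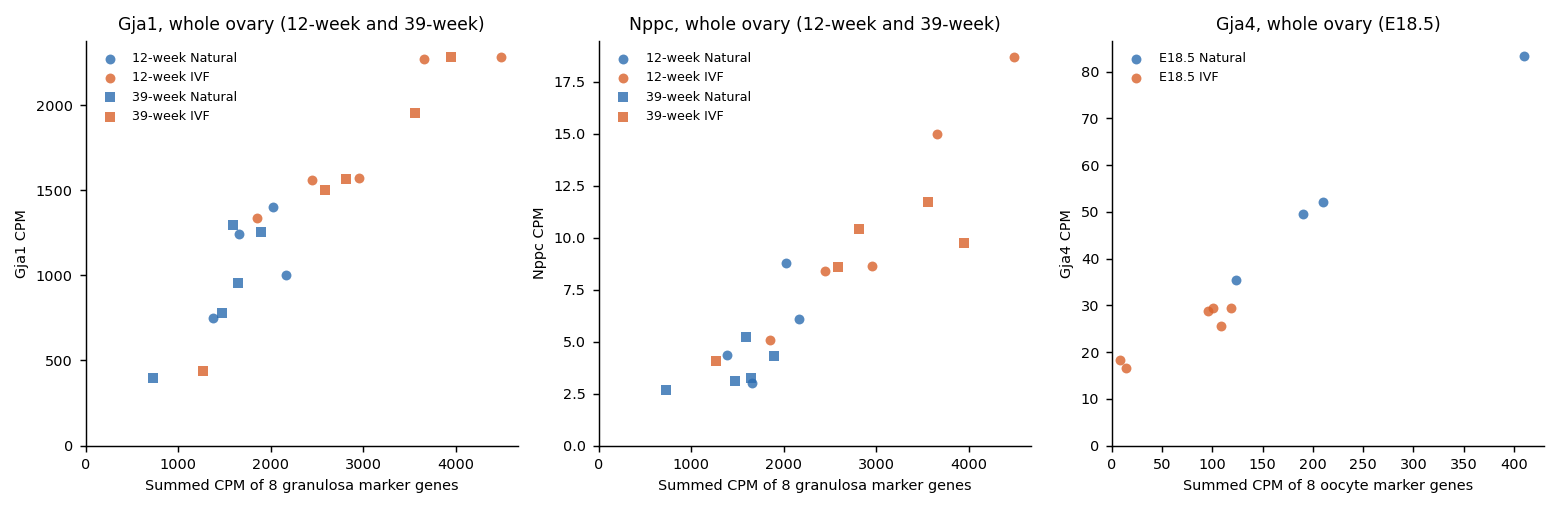
Each point is 1 whole ovary (12 weeks circles, 39 weeks squares, Natural blue, IVF orange): Gja1 and Nppc (CPM) against the summed CPM of 8 granulosa marker genes in adult ovaries, and Gja4 (CPM) against the summed CPM of 8 oocyte marker genes at E18.5. Each gene tends to be higher where its marker sum is higher, but not in every ovary. Among 12-week Natural ovaries, the one with the highest granulosa sum (2167) had 1002 CPM of Gja1, below another with a sum of 1661 (1245 CPM). The 2 E18.5 IVF ovaries with sums of 8.10 and 13.6 have the lowest Gja4.

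In adult ovaries none of the 10 genes passed at either age. At 12 weeks 0 of 10 genes were called, where 0.00567% of 17628 genes were (1 gene, with 2544 at an unadjusted p under 0.05), and 2 of the 10, Gja1 and Nppc, had an unadjusted p under 0.05, against 14.4% of all genes. Gja1 was at 1002, 750.1, 1245 and 1403 CPM in Natural and 1561, 1569, 2269, 2282 and 1335 CPM in IVF ovaries. In all, 4 of 5 IVF ovaries lay above every Natural one (log2 fold change 0.70, SE 0.22, edgeR quasi-likelihood test, adjusted p = 0.213). Nppc was at 6.09, 4.37, 2.99 and 8.76 CPM in Natural and 8.42, 8.62, 15.0, 18.7 and 5.08 CPM in IVF ovaries, which overlap (log2 fold change 0.94, SE 0.41, edgeR quasi-likelihood test, adjusted p = 0.335). IVF replicate 4, the ovary of fewest counts, gave the highest Gja1 and the highest Nppc, the latter from 53 counts. Gja4 (14.0 to 22.7 against 16.5 to 32.4 CPM), Pde3a (25.3 to 39.7 against 18.7 to 37.6), Npr2 (85.2 to 167 against 80.3 to 162), Gjc1, Gpr3, Myo10, Fscn1 and Daam1 overlapped as well.

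At 39 weeks 0 of 10 genes were called, where 0.262% of 17186 genes were (45 genes, with 3303 at an unadjusted p under 0.05), and 2 of the 10, Nppc and Myo10, had an unadjusted p under 0.05, against 19.2% of all genes. Nppc, the C-type natriuretic peptide precursor, was at 2.67, 3.13, 4.31, 3.26 and 5.24 CPM in Natural and 4.07, 9.73, 8.59, 11.7 and 10.4 CPM in IVF ovaries. In all, 4 of 5 IVF ovaries lay above all Natural ones, and the other, replicate 1, is the ovary with the high oviduct sum. The log2 fold change of Nppc was 1.24 (SE 0.30, edgeR quasi-likelihood test, adjusted p = 0.0954), 1.41 without that ovary (adjusted p = 0.0321), and with DESeq2, which called 6.75% of all genes, Nppc passed (adjusted p = 0.00277). Gja1 was at 395, 776, 1253, 952 and 1294 CPM in Natural and 436, 2283, 1499.8, 1956 and 1566 CPM in IVF ovaries, with the same 4 IVF ovaries above all Natural ones (log2 fold change 0.71, SE 0.42, edgeR quasi-likelihood test, adjusted p = 0.368).

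Myo10 at 39 weeks was at 225, 241, 199.8, 312 and 245 CPM in Natural and 126, 212, 188, 210.0 and 211 CPM in IVF ovaries (log2 fold change -0.36, SE 0.14, edgeR quasi-likelihood test, adjusted p = 0.218). The lowest value again came from IVF replicate 1. Gja4 (18.45 to 23.7 against 15.4 to 24.6 CPM), Gjc1 (12.2 to 19.4 against 10.3 to 19.7), Npr2 (66.6 to 91.7 against 68.0 to 109.9), Pde3a (19.6 to 34.2 against 24.0 to 27.6), Gpr3, Fscn1 and Daam1 overlapped. None of the pathway lists had a gene called at either adult age (14, 45 and 26 genes tested at 12 weeks, 10, 45 and 27 at 39 weeks).

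Granulosa marker RNA varied with Gja1 and Nppc across adult ovaries. The summed CPM of the 8 granulosa markers was 1382 to 2167 in Natural and 1853 to 4484 in IVF ovaries at 12 weeks, and 727 to 1897 and 1271 to 3948 at 39 weeks. As a percent of that sum, Gja1 was 46.2 to 75.0 in Natural and 50.9 to 72.1 in IVF ovaries at 12 weeks, and 52.6 to 81.4 and 34.3 to 58.1 at 39 weeks. Nppc was 0.180 to 0.433 and 0.274 to 0.416 percent at 12 weeks, and 0.197 to 0.367 and 0.246 to 0.369 at 39 weeks. The groups overlap on this scale at both ages, as they also did in plain CPM. The median percent of Nppc was 0.299 in Natural and 0.344 in IVF ovaries at 12 weeks, and 0.227 and 0.330 at 39 weeks. That of Gja1 was 61.8 and 62.1 at 12 weeks, and 57.7 and 55.6 at 39 weeks. Oviduct and epithelium markers at 12 weeks summed to 3356 to 7716 CPM in Natural and 85.9 to 3160 in IVF ovaries, without overlap. The part of cell composition or dissection in these differences was not tested.

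The IVF effect was compared between the 2 adult ages in 1 model, where 0.0157% of 19066 genes were called (3 genes, with 3839 at an unadjusted p under 0.05). None of the 10 passed. The change in log2 fold change from 12 to 39 weeks was 0.01 (SE 0.52) for Gja1 and 0.28 (SE 0.52) for Nppc. For Myo10 it was -0.51 (SE 0.20, edgeR quasi-likelihood test, adjusted p = 0.179), the only unadjusted p under 0.05 among the 10, and for Daam1 0.39 (SE 0.19, adjusted p = 0.252 in the same edgeR test).

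In PGC at E13.5 the connexins and cyclic nucleotide genes of the later follicle were low, with Gjc1 the exception. Gjc1 was at 36.5, 136, 71.0 and 108 CPM in Natural and 64.2, 107, 107, 64.6 and 82.4 CPM in IVF pools, where Gja1 was at 2.90 CPM or less and Gja4 at 1.33 to 9.42. Pde3a (0 to 3.43 CPM), Gpr3 (0 to 2.54) and Nppc (0.362 or less, and 0 in all 4 Natural pools) were near or at 0. Myo10 (50.4 to 121 CPM in Natural, 62.3 to 114 in IVF), Fscn1 (28.5 to 90.5 and 29.5 to 62.9) and Daam1 (18.8 to 43.3 and 15.6 to 27.5) were present. Npr2 was at 1.52, 30.0, 0.663 and 1.37 CPM in Natural and 1.71 to 7.79 in IVF pools, so that 1 Natural pool sets its Natural mean. None of the 7 genes tested passed, where 0% of 12763 genes were called by edgeR (0 also by DESeq2, and 349 genes at an unadjusted p under 0.05, none of them among the 7).

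**Figure D4:**
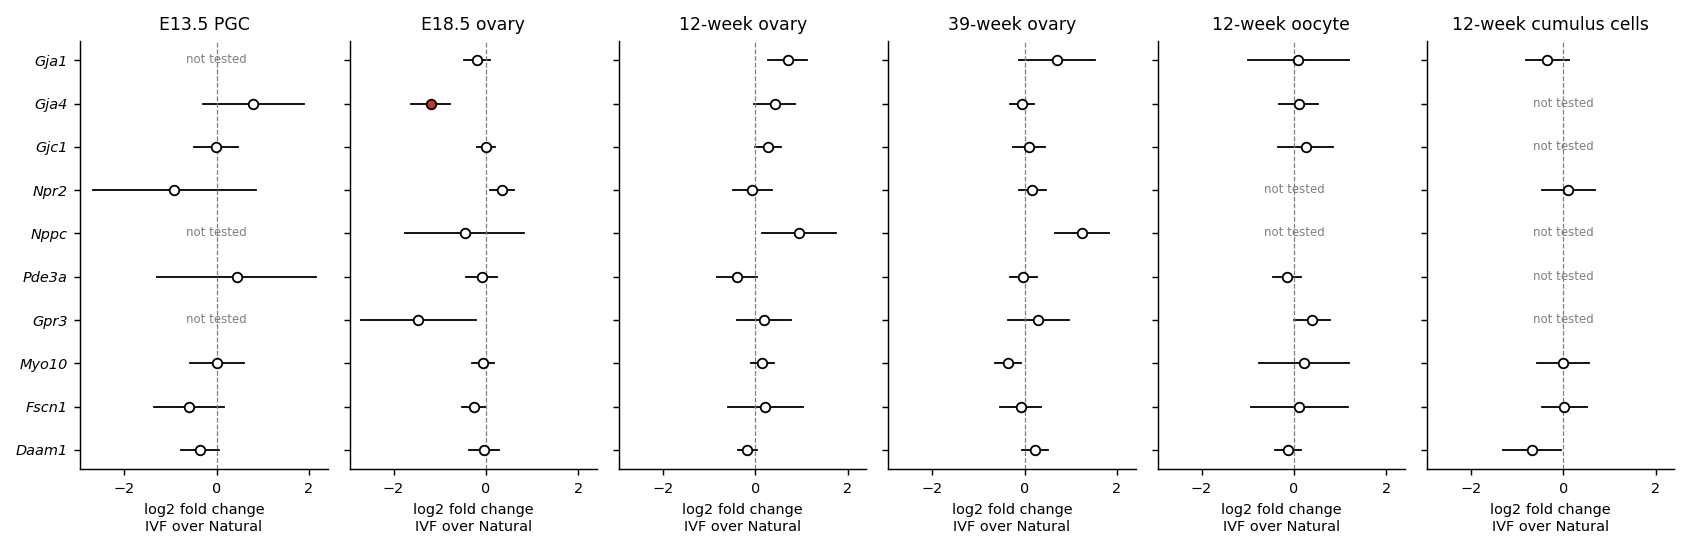
Log2 fold change of IVF over Natural for each gene in 6 comparisons, with lines spanning an approximate 95% interval. The lines rest on a normal approximation, which makes them too narrow for groups of so few libraries. A filled red point passed edgeR's quasi-likelihood test with Benjamini-Hochberg adjustment and open points did not. Gja4 in the E18.5 ovary, at -1.20, is the single filled point, and no other point is filled.

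For 39-week oocytes the labels name no donors, so that each group is 1 sample and no test was made. Counts were summed over the 9 Natural and 10 IVF oocytes, with 95% intervals that cover counting error alone. Gjc1 and Fscn1 were the 2 genes past a 2-fold ratio among the 9 with enough counts, where 30.1% of 12319 genes were. Gjc1 had 14 counts in Natural and 472 in IVF oocytes, a ratio of 20.3 (interval 12.0 to 37.4), which was 60.1 without Natural oocyte 1. It was at 0 in 6 of 9 Natural oocytes with a highest value of 0.597 CPM, and at 0 in 1 of 10 IVF oocytes with a highest value of 7.80. At 12 weeks the same gene had 1.25 to 2.77 CPM in Natural and 1.38 to 3.20 in IVF donor sets. Fscn1 had a ratio of 0.358 (0.288 to 0.444), from 232 and 138 counts. Natural oocyte 4, with 15.1 CPM, sets much of it, since without that oocyte the ratio was 0.553 and not past 2-fold. By single oocytes Fscn1 had a log2 ratio of medians of -0.48.

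The oocyte-side genes differed less at 39 weeks. Gpr3 ranged from 73.2 to 208 CPM (median 101) in Natural and 36.4 to 106 (median 65.3) in IVF oocytes, a ratio of 0.624 (0.609 to 0.640). The highest Natural Gpr3 was in 1 of the 2 oocytes of low marker sum, and without these 2 the log2 ratio was -0.41. Gja4 had a ratio of 1.37 (1.34 to 1.40), which came to -0.01 on the log2 scale without those 2 oocytes, whose Gja4 was 13.7 and 0.109 CPM. Pde3a had a ratio of 1.18, and 90.3 and 51.8 CPM in the same 2. Gja1 (0.789), Myo10 (1.65), Daam1 (0.952) and Npr2 (0.518) stayed within 2-fold in the summed counts, but Myo10 passed it by the ratio of medians (log2 ratio 1.13) or with TMM scaling (1.63), and without Natural oocyte 9 (1.15). By medians the log2 ratio was -2.98 for Gja1 and -0.70 for Daam1. The Gja1 medians of both groups were under the minimum of 1 CPM, so that Gja1 was not counted as past 2-fold there. Gja1 and Npr2 rested on single oocytes. Without IVF oocyte 10 the ratio was 0.241 for Gja1 and 0.0397 for Npr2, and without Natural oocyte 9 it was 1.93 for Npr2. Npr2 came to a log2 ratio of 0.74 without the 2 oocytes. Nppc had 10 and 5 counts. Without these 2 oocytes the log2 ratio was 3.86 for Gjc1 and -1.56 for Fscn1.

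The 14 groups were also put in order of mean level, as a description, since sample type, age and library protocol cannot be told apart in that order. Gja1 ran from cumulus cells (3796 Natural, 3227 IVF) through adult ovary (934 to 1803) and E18.5 ovary (201 and 181) to oocytes (13.0 to 26.8) and PGC (1.20 or less). Gja4 was highest in 39-week oocytes (161 IVF, 136 Natural) and 12-week oocytes (101 and 86.1), followed by the E18.5 Natural ovary (55.1). Gjc1 was highest in PGC (87.9 and 85.0) and E18.5 ovary (66.0 and 64.4), each pair within its own spread, and was 15.7 to 19.2 in adult ovary. Npr2 was highest in the E18.5 IVF ovary (155), followed by the 12-week ovary and the E18.5 Natural ovary (118 to 122), which do not differ beyond their spread. Nppc reached a mean of more than 1 CPM in adult ovary alone (3.72 to 11.2). Daam1 was highest in 12-week oocytes (110 and 109), Fscn1 in the ovary (250 to 384) and Myo10 in the ovary (125 to 245).

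**Figure D5:**
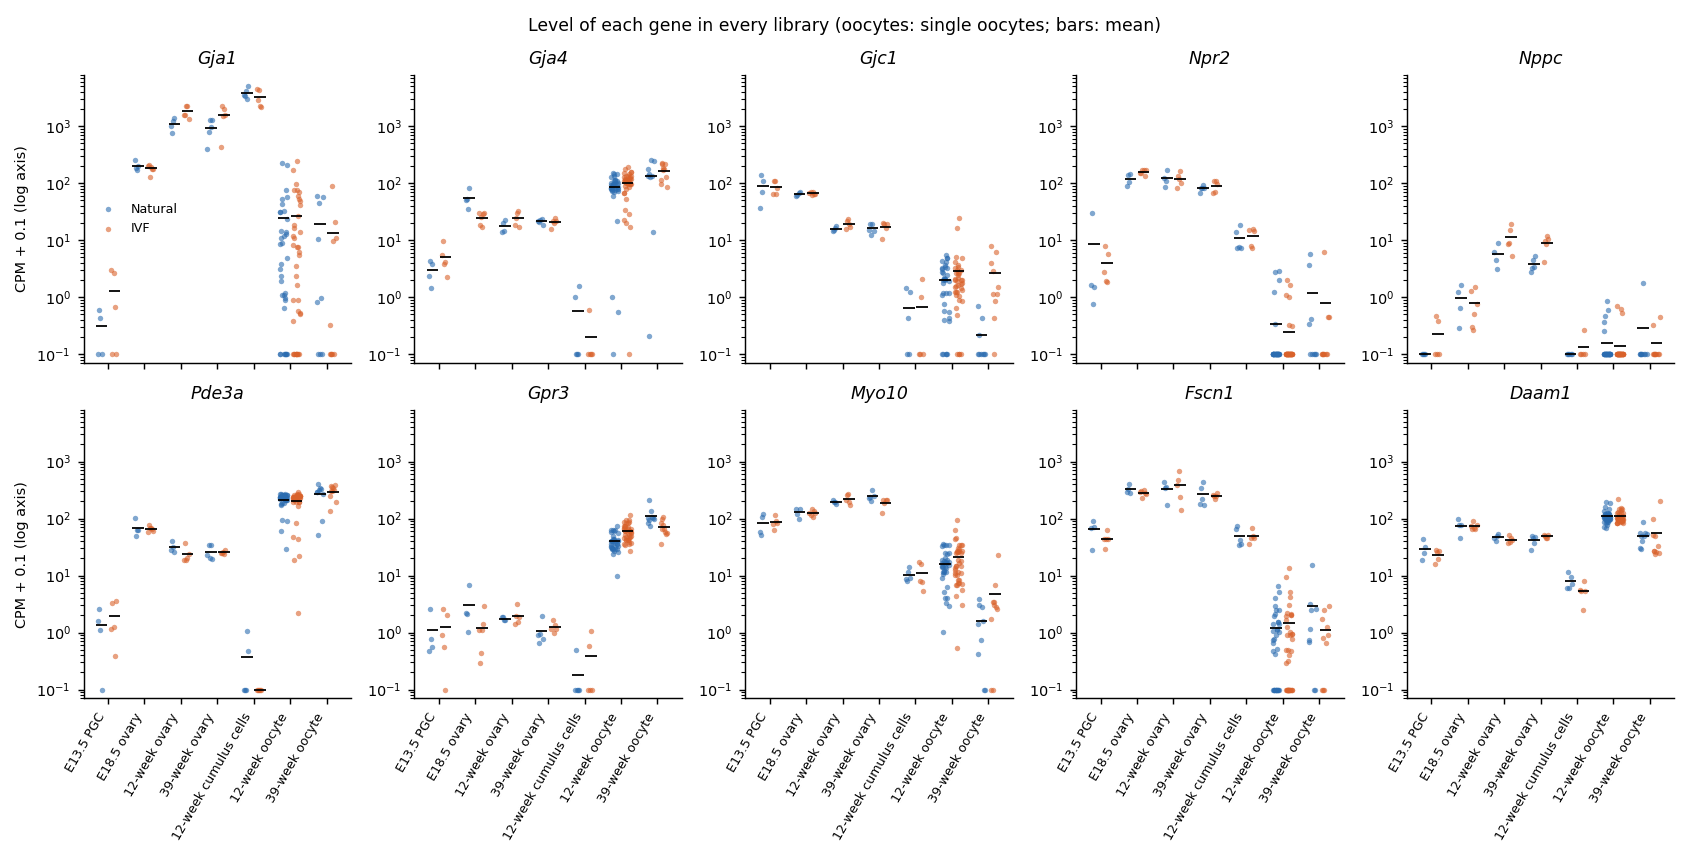
Level of each gene (CPM + 0.1, log axis) in every library of the 7 sample types, Natural in blue and IVF in orange. Points are libraries (single oocytes for the oocyte columns) and black bars are group means. Gja1 is highest in cumulus cells, Gja4, Pde3a and Gpr3 in oocytes, Gjc1 in PGC and E18.5 ovary, and Nppc in adult ovary.

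The genes closest to each in mean log2 CPM over the 14 groups, among 15576 genes, were named by Pearson's r, which describes these groups and carries no test. For the oocyte genes, Csnk1e was closest to both Gja4 (r = 0.99) and Pde3a (r = 0.99), followed by Ctbp2 and Tmcc2 for Gja4 and by Plekhg1 and Smad3 for Pde3a. Nrn1l, Med27 and Gipc2 were closest to Gpr3 and Fnbp1l, Yap1 and Fam117b to Daam1. For the follicle cell genes, Akr1c14, Anxa1 and Fst, which encodes follistatin, were closest to Gja1, and Bcan, C7 and Cyp17a1, the androgen-making enzyme of theca cells, to Nppc. Eml1, Bcl9l and Smarcd3 were closest to Npr2, Wash1, Ppp2cb and Cnn2 to Fscn1, Mapkapk5, Ppp2r5e and Homer1 to Myo10, and Casp2, Whsc1 and Atr to Gjc1.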

How the data were processed

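The deposited files hold read counts per gene, which the authors made per the labels with Trimmomatic 0.32, STAR 2.3.0e and featureCounts 1.5.0 on mm10, with DESeq2 also named. Tissue libraries were stranded mRNA libraries, and PGC, oocyte and cumulus libraries came from a low-input template-switching protocol with tagmentation. Of the counts from 1 to 39, 65.2% to 78.4% were even, so that a count need not be 1 independent fragment and counting intervals may be too narrow. A further 27 gene names had been turned into numbers in the ovary tables, and no gene was named from these rows.

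Groups came from the sample labels. Natural and IVF were compared within each table with edgeR 4.0.16 in R 4.3.3 (TMM scaling, filterByExpr, quasi-likelihood test, two-sided, Benjamini-Hochberg over all genes tested, threshold 0.05), with the library set as a term for cumulus cells. Oocytes at 12 weeks were summed per set of library names, taken here as donors, since oocytes of a donor are not replicates. At 39 weeks no donors are named and ratios carry no test. The IVF effect at both adult ages was compared by an interaction term, over both ovary tables. DESeq2 1.42.0, limma 3.58.1, other scalings and filters and left-out replicates were alternatives. The scripts were tested on simulated data. Printed levels are plain CPM, and fold changes are those of the fit, positive where IVF (or the oocyte) is higher. Intervals assume 95% confidence and floors 3 counts. Intervals drawn for fold changes rest on a normal approximation and are too narrow for so few libraries. Depth is given with the samples.

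The 10 genes and all lists were chosen with earlier results of these data known. The text names the 10 genes throughout, up to 3 called list genes with the largest change in each direction per comparison, and 3 genes of most similar pattern per gene (log2 CPM with a pseudocount of 1, genes of at least 5 CPM in a group). Of 52 names in the cGMP and cAMP list, 50 were in the tables. Other marker lists were used as sums. Figures were drawn with matplotlib 3.10.9.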

Additional observations from a re-analysis of the deposited data

Results flagged for a closer look

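Values that stood apart from the rest of their group, by Dixon's test at the 95% level, were found in 12 of 118 groups of 4 to 10 samples, where chance alone flags about 1 in 20. No explanation of the flagged values was tested.

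In ovary and germ cell libraries, 4 values stood apart. Pde3a was 37.6 CPM in IVF replicate 2 at 12 weeks, against 23.4 in the next ovary. Gpr3 was 1.87 CPM in Natural replicate 4 at 39 weeks, against 0.830 in the next. Myo10 was 126 CPM in IVF replicate 1 at 39 weeks, the ovary with the high oviduct marker sum, below 188 in the next. Npr2 was 30.0 CPM in Natural PGC pool 2, against 1.52 in the next.

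Among oocytes at 12 weeks, 1 Natural donor set had 65.2 CPM of Gja1, against 23.3 in the next. At 39 weeks IVF oocyte 10 had the highest Gja1 (89.4 CPM) and the highest Npr2 (6.02 CPM), and also the highest expanded cumulus sum, 51.8 CPM. IVF oocyte 7, the shallowest with 2820748 counts, had 23.0 CPM of Myo10 and 200.3 CPM of Daam1. Natural oocyte 4 had 15.1 CPM of Fscn1 and 85.9 CPM of Daam1. Natural oocyte 9, of low oocyte marker sum, had 208 CPM of Gpr3.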

How the results depend on the processing

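The 9 calls between oocytes and cumulus cells remained under every alternative run, including matched donor sets, while all genes called ran from 12139 to 14123 with a library left out. Of the IVF comparisons, these counts of the 10 genes changed, and the cause was not tested. In the 39-week ovary DESeq2 called 1 gene (Nppc), where it called 6.75% of all genes, and also 1 with a fold minimum of 1.5 (4.08% of all genes), and leaving out a library gave 0 to 1, where the 1 call came without IVF replicate 1. In the E18.5 ovary 0 were called with the replicate number as a block (Gja4 log2 fold change -1.30, edgeR adjusted p = 0.192) and 0 without the 2 IVF ovaries of low oocyte marker sum, an alternative added after seeing the data, as were those leaving out oocytes of low marker sum. Leaving out a single E18.5 library kept Gja4 called at -1.34 to -0.94. Same-numbered libraries deviated together with a correlation over 0.1 in 0 of 4 pairs at E18.5 (-0.13 to 0.01), 2 of 4 in the 12-week ovary (-0.36 to 0.25), 3 of 5 in the 39-week ovary (-0.01 to 0.40) and 3 of 4 in PGC (-0.07 to 0.54). No assay had every pair above 0.1, so they were not treated as paired and the replicate block stays an alternative. It changed no other call of the 10. In cumulus cells the first library set alone gave 1 call, Gja1 at -0.72, where 6% of all genes were called.

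Among tested comparisons, signs turned only for log2 fold changes that passed in neither fit. For Gjc1 in PGC it was 0.00488 with no filter and 0.0919 under the replicate block, for Npr2 in PGC 0.0608 and for Gjc1 at E18.5 0.0148 under that block. In 12-week oocytes Myo10 came to -0.0513 with sums per first field of the name, Gja1 to -0.18 and Fscn1 to -0.15 with limma over oocytes, and Gjc1 to -0.0156 without oocytes of low marker sum. In cumulus cells Myo10 came to 0.0433 and Fscn1 to -0.0584 with no library set in the model, Fscn1 to -0.0327 with Natural replicate 5 as IVF, Npr2 to -0.14 and Myo10 to 0.27 in the second set, and Fscn1 to -0.62 in the first.

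With a library left out, log2 fold changes crossed 0 as follows. At E18.5 Gjc1 ran from -0.0526 to 0.0471, Pde3a from -0.24 to 0.15, Myo10 from -0.15 to 0.0122 and Daam1 from -0.22 to 0.11. In the 12-week ovary Npr2 ran from -0.23 to 0.10, Gpr3 from -0.0407 to 0.29 and Fscn1 from -0.0777 to 0.41. In the 39-week ovary Gja4 ran from -0.13 to 0.0211, Pde3a from -0.11 to 0.0594 and Fscn1 from -0.21 to 0.12. In PGC Gjc1 ran from -0.20 to 0.13, Npr2 from -1.29 to 1.504 (the latter without Natural pool 2) and Myo10 from -0.24 to 0.19. In 12-week oocytes Gja1 ran from -0.20 to 0.66, Gja4 from -0.0612 to 0.22, Myo10 from -0.10 to 0.56 and Fscn1 from -0.38 to 0.35. In cumulus cells Npr2 ran from -0.0699 to 0.33, Myo10 from -0.20 to 0.15 and Fscn1 from -0.30 to 0.15. For the change between adult ages Gja1 ran from -0.18 to 0.25, Nppc from -0.0318 to 0.503 and Gpr3 from -0.0512 to 0.46.

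Counts over all genes moved more. At E18.5 the 891 calls became 1870 with DESeq2, 3 with the replicate block, 5 without the low-marker ovaries and 313 to 1973 with a library left out. In the 12-week ovary 1 call became 635 with DESeq2 (508 with the fold minimum), 9 with no filter, 0 with 10 counts in every library, 0 with the block and 1 to 5 with a library left out. In the 39-week ovary 45 became 1135 (686), 28, 96, 24 and 0 to 123. PGC kept 0 in all. In 12-week oocytes 4 became 54 with DESeq2 (52), 19 with no filter and 1 to 8 with a set left out. In cumulus cells 1 became 31 (30), 104 with no filter, 2 with the strict filter, 0 with no library set, 8 with replicate 5 as IVF, 2 and 639 in the second and first set, and 1 to 5. The interaction's 3 became 1114 with DESeq2, 10 with RLE scaling, 47 with the strict filter and 0 to 57. In 39-week oocytes 3709 genes past 2-fold became 1971 by medians and 2314 without oocytes of low marker sum, and 2678 to 4211 with an oocyte left out. Leaving out an oocyte, added after seeing the data, gave 2 to 4 of the 10 past it. Those past it were Gjc1 and Myo10 by medians and Gjc1, Myo10 and Fscn1 with TMM scaling.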
